A study of Homo sapiens with 2 samples.

Results

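The EMT transcription factors and cadherins are 10 genes of the 41582 to which the deposited transcripts of U87 cells could be assigned. They were listed by name, with earlier results of these data known: the factors SNAI1, SNAI2, TWIST1, TWIST2, ZEB1 and ZEB2, and the cadherins CDH1, CDH2, CDH11 and CDH13. U87 is an established human glioblastoma cell line, labelled wild type in both groups and grown in RPMI medium with fetal bovine serum. One culture received the vehicle DMSO and the other CCA-1.1, a curcumin analog dissolved in DMSO, each for 72 h; the former is called vehicle below. The dose of CCA-1.1 given to the sequenced culture is not given in the sources used here. Messenger RNA was sequenced with 1 library per condition, so no value below has a replicate error, no test was made, and a difference between the libraries cannot be told apart from a difference between any 2 cultures. The values are TPM (reads per transcript length as parts of a fixed library total), so that levels of different genes can be compared. The read depth cannot be read from TPM and is unknown. A gene's level is the sum of the TPM of its transcripts, and a difference is log2(TPM + 1) with CCA-1.1 minus log2(TPM + 1) with vehicle. On this scale the change of a gene at low TPM appears smaller than it is.

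Epithelial to mesenchymal transition (EMT) is the programme by which cells joined in a sheet loosen their junctions and become motile. SNAI1 (Snail) and SNAI2 (Slug) are zinc finger repressors, TWIST1 and TWIST2 are basic helix-loop-helix proteins, and ZEB1 and ZEB2 are zinc finger homeobox proteins. The SNAI and ZEB factors bind E-box motifs and are known for silencing CDH1, which encodes the epithelial E-cadherin. CDH2 encodes N-cadherin, the main cadherin of neural and mesenchymal cells, CDH11 encodes OB-cadherin, first described in bone-forming cells, and CDH13 encodes T-cadherin, which is held in the membrane by a lipid anchor and lacks the cytoplasmic tail that binds catenins. Glioblastoma is not an epithelial tumor, but its mesenchymal and invasive states are known for expressing several of these factors.

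ZEB1 and ZEB2 are the best known targets of the miR-200 family, which holds them down in epithelial cells and is in turn repressed by them. The mature 3' sequences of the family, from RefSeq (GRCh38.p14), are shown because the deposited table lists their precursors beside ZEB1 and ZEB2. Capitals mark the seed, bases 2 to 8, by which a microRNA pairs with its targets. The seed AAUACUG is shared by 3 of them and AACACUG by 2.
hsa-miR-200b-3p: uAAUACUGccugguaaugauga
hsa-miR-200c-3p: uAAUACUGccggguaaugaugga
hsa-miR-429: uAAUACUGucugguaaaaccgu
hsa-miR-200a-3p: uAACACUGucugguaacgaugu
hsa-miR-141-3p: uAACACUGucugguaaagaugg
Of the 8 genes listed for the miR-200 and miR-205 loci, 7 were at 0 TPM in both libraries, among them the precursors of all 5 microRNAs above and the host gene MIR200CHG. The other was MIR205HG, the host of miR-205, at 2.35 TPM with vehicle and 1.80 TPM with CCA-1.1. The 6 microRNA entries are short hairpins, which an mRNA library does not hold as such, so their 0 follows from the method and says nothing of the microRNAs. Of the loci, only the host genes MIR200CHG and MIR205HG could be read here, and mature microRNAs were not measured.

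ZEB1 (chr10:31318417-31529804, GRCh38.p14) has 7 start windows in the RefSeq table, each from 250 bases before a start to 50 after it. It was the member with the most transcripts, and its upstream sequence is shown because it holds the 6-base E-box to which SNAI and ZEB factors are known to bind. The 250 bases before the third of these starts (chr10:31318966-31319215, plus strand), whose window holds the motif most often, read as follows, with CACCTG, or CAGGTG for the other strand, in capitals.
ZEB1 upstream sequence: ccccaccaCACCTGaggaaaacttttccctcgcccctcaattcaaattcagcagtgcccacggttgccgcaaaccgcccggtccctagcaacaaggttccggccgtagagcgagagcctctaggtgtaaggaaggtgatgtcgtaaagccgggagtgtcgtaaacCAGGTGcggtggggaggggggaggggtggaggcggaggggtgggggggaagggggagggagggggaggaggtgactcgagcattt
The E-boxes begin at -242 and -85, counted from the start as 0, and the window holds another at 33, past the stretch shown. The motif was counted in the windows of 4 of the 10 members (TWIST2, ZEB1, ZEB2 and CDH2). SNAI2, the highest factor, was left out of this count, and the remaining members were not part of it either. The count therefore describes these 4 members only, and whether SNAI2 holds the motif is not reported here. The motif was in 2 of the 7 windows of ZEB1 and in none of the others of the 4 members counted. Of all 35116 windows in the RefSeq table, 20.6% hold the motif on either strand and 0.635% hold it at least 3 times. Of 27305 genes, 24.1% hold it in at least 1 window. The window shown was picked from the 7 of ZEB1 for its count, so these shares do not measure how rare that count is for the gene. The match is of letters only. Binding was not measured.

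The expression of the factors differed widely among close relatives. SNAI2 was the highest factor in both libraries, at 104.3 TPM with vehicle and 89.9 TPM with CCA-1.1. It held 59.9% of the summed TPM of the 6 factors with vehicle and 57.2% with CCA-1.1. Its relative SNAI1 was at 0.22 TPM in both libraries. The SNAI pair thus differed by 474-fold with vehicle and 409-fold with CCA-1.1, although the ratio rests on a low SNAI1 value whose counting error is unknown. The TWIST pair showed a similar gap, with TWIST1 at 22.0 TPM with vehicle and 16.9 TPM with CCA-1.1, and TWIST2 at 0.11 TPM and 0.01 TPM. In the ZEB pair both genes were present at like levels. ZEB1 was at 20.8 TPM with vehicle and 20.0 TPM with CCA-1.1, and ZEB2 was at 26.7 TPM and 30.2 TPM. The ZEB2 to ZEB1 ratio of TPM was 1.28 with vehicle and 1.51 with CCA-1.1. With vehicle the order of levels was SNAI2, ZEB2, TWIST1, ZEB1, SNAI1 and TWIST2, and with CCA-1.1 TWIST1 and ZEB1 changed places. With 1 library per condition it cannot be said whether neighbours in this order differ beyond their spread.

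Among the cadherins, CDH13 was by far the highest. Its level was 353.4 TPM with vehicle and 266.7 TPM with CCA-1.1, which put it above 99.1% of all genes in the DMSO library and above 98.8% in the CCA-1.1 library. CDH2 was at 25.5 TPM with vehicle and 25.1 TPM with CCA-1.1. CDH11 was at 1.81 TPM and 1.62 TPM. CDH1 was at 0.16 TPM with vehicle and 0.06 TPM with CCA-1.1, in a table rounded to 0.01 TPM. Thus mRNA of N-cadherin was present and mRNA of E-cadherin was close to the floor of the table in the vehicle culture as well as in the treated one. Protein was not measured. The order CDH13, CDH2, CDH11 and CDH1 held in both libraries. CDH13 exceeded CDH2 by 13.8-fold with vehicle and 10.6-fold with CCA-1.1. Over 23 genes named CDH, including the 4 members, the summed TPM was 392.6 with vehicle and 305.7 with CCA-1.1. CDH13 made up 90.0% of this sum with vehicle and 87.3% with CCA-1.1, and CDH2 made up 6.50% and 8.22%. Without CDH13 the sum of the remaining 22 genes was 39.2 TPM with vehicle and 39.0 TPM with CCA-1.1. The lower sum in the CCA-1.1 library therefore lay almost wholly in CDH13.

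**Figure D1:**
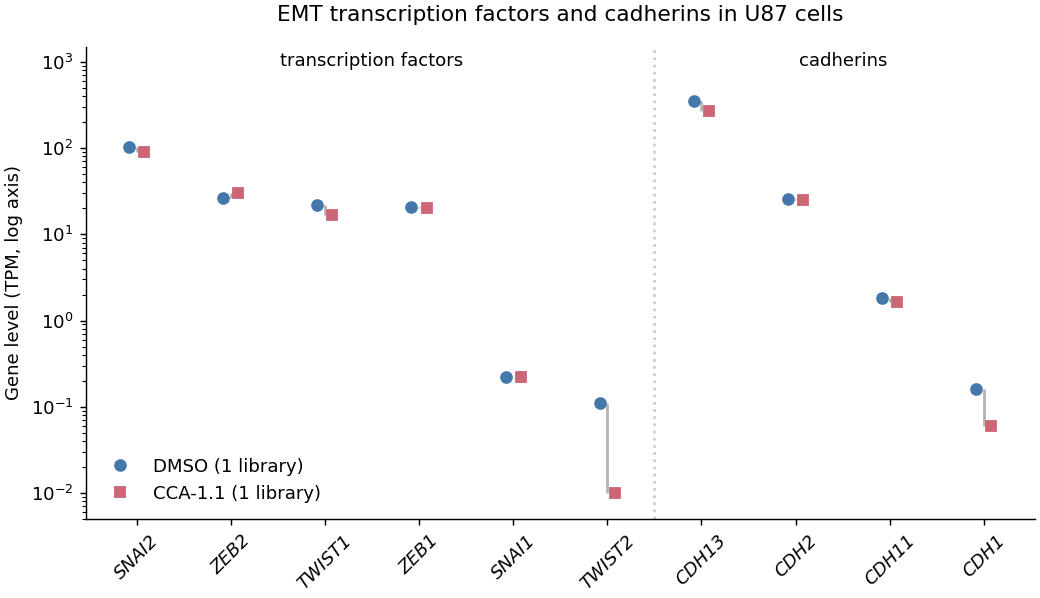
Gene level (TPM, log axis) of the 6 EMT transcription factors and 4 cadherins in the DMSO library (circles) and the CCA-1.1 library (squares), with a grey line joining both values; there is 1 library per condition, so no error bars are drawn. SNAI1, TWIST2 and CDH1 lie under 1 TPM in both libraries, while CDH13 lies above 200 TPM, at 353.4 TPM (DMSO) and 266.7 TPM (CCA-1.1).

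No member passed 2-fold, that is a difference above 1 or below -1, in either direction. Over all 41582 genes, 0.815% were higher by more than 2-fold with CCA-1.1 and 0.714% were past 2-fold lower. Of the 10 members, 7 averaged 1 TPM or more over the libraries (SNAI2, TWIST1, ZEB1, ZEB2, CDH2, CDH11 and CDH13), and among all genes above that minimum the shares were 1.89% higher and 1.67% lower. At these shares, 0 of 10 or 0 of 7 is near what the background gives, so the count says little about the members. Of these 7 members, 6 had a lower value with CCA-1.1 and ZEB2 a higher one. Among genes at a mean of 1 TPM or more, the median difference was -0.13 over the 4 factors and -0.10 over the 3 cadherins that reached it, against 0.03 over all such genes. Over all 6 factors and all 4 cadherins, the 3 genes under 1 TPM included, the medians were -0.09 and -0.12, so the order of the groups depended on those genes.

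CDH13 had the largest difference of the members, -0.40, with a level 24.5% lower in the CCA-1.1 library. TWIST1 followed with -0.36, a level 23.3% lower. To place these values, the 7906 protein-coding genes at a mean of 10 TPM or more had a 5th percentile of -0.29 and a 1st percentile of -0.50. CDH13 and TWIST1 were thus in the lowest 5% of these genes, with 149 genes below CDH13 and 208 genes below TWIST1. SNAI2 had a difference of -0.21 (13.8% lower), with 745 of the 7906 genes below it. ZEB2 had a difference of 0.17 (12.9% higher), inside the 95th percentile of 0.31. ZEB1 (-0.05) and CDH2 (-0.02) were close to the median of these genes, 0.0039. CDH11, under the minimum of 10 TPM, had a difference of -0.10. SNAI1 had a difference of 0. TWIST2 (-0.14) and CDH1 (-0.13) were lower by 0.10 TPM each, and no fold is read from values this close to 0.

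**Figure D2:**
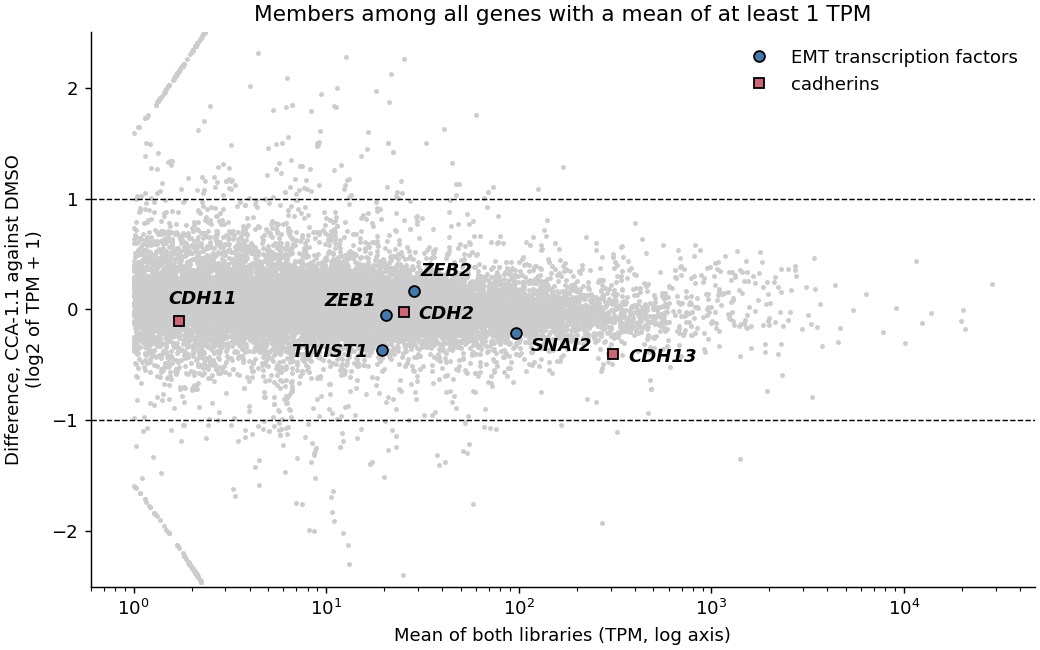
Difference between the libraries (log2 of TPM + 1, CCA-1.1 against DMSO) against the mean level (TPM, log axis) for 15485 genes at a mean of 1 TPM or more (grey), with the factors (circles) and cadherins (squares) that reach this minimum; dashed lines mark 2-fold, the grey diagonals are genes at 0 in a library, and 128 genes lie beyond the vertical axis. All 7 members shown lie between the dashed lines, with CDH13 (-0.40) and TWIST1 (-0.36) lowest and ZEB2 (0.17) highest.

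Some transcripts of the members differed between the libraries by more than their genes did. Where reads match several transcripts, Kallisto estimates how many to give to each, which makes the values of sister transcripts depend on each other. The table lists 87 transcripts of the members, of which 3 were past 2-fold higher and 2 past 2-fold lower in the CCA-1.1 library. Over all transcripts the shares past 2-fold were 1.17% higher and 1.07% lower. Of the 21 transcripts of members at a mean of 1 TPM or more, 1 was past 2-fold higher and 2 were past 2-fold lower, where all transcripts above that minimum gave 3.66% and 3.38%. Of the 5 transcripts past 2-fold, 3 belonged to ZEB1, 1 to CDH2 and 1 to CDH13.

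ZEB1 had 56 transcripts, 41 of them curated (NM identifiers) and 15 predicted (XM identifiers). Of these, 22 were at 0 in both libraries, 13 were above 0 in both, 10 were above 0 in the DMSO library alone and 11 in the CCA-1.1 library alone. With vehicle the highest transcript was NM_030751.6 at 6.19 TPM, which was at 0.67 TPM with CCA-1.1, a difference of -2.11. Its share of the gene was 29.8% with vehicle and 3.34% with CCA-1.1. With CCA-1.1 the highest was NM_001174096.2 at 8.50 TPM, against 5.20 TPM with vehicle, a difference of 0.62, and its share was 25.0% with vehicle and 42.4% with CCA-1.1. NM_001323655.2 was at 0.14 TPM with vehicle and 3.10 TPM with CCA-1.1, a difference of 1.85. NM_001323660.2 was listed at 0 with vehicle and was at 1.04 TPM with CCA-1.1, a difference of 1.03. The predicted XM_047425695.1 was at 2.55 TPM with vehicle and 1.13 TPM with CCA-1.1, and NM_001323641.2 was at 1.11 TPM and 2.08 TPM.

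These opposite movements cancelled in the gene total of ZEB1. Summed without regard to sign, the changes of its transcripts came to 22.6 TPM, while the gene as a whole was lower by 0.76 TPM. NM_030751.6, NM_001174096.2 and NM_001323655.2 together were at 11.5 TPM with vehicle and 12.3 TPM with CCA-1.1, a difference of 0.08. The share of the gene that changed transcript between the libraries, taken as the summed gains in share, was 55.8 percentage points. An exchange of reads between estimates and a change of transcript use cannot be told apart from these values. The sign of the difference of the total depended on the predicted transcripts. With curated transcripts alone the difference of ZEB1 was 0.09 in place of -0.05, which is still small.

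ZEB2 (chr2:144384081-144520119) showed little exchange, with all 3 of its transcripts higher in the CCA-1.1 library. NM_014795.4 held most of the gene, at 21.6 TPM with vehicle and 23.8 TPM with CCA-1.1, a share of 81.0% and 79.0%. NM_001171653.2 was at 2.90 TPM with vehicle and 3.88 TPM with CCA-1.1. The share that changed transcript was 2.01 percentage points. The antisense gene ZEB2-AS1 was at 2.12 TPM with vehicle and 0.95 TPM with CCA-1.1, a difference of -0.68, while ZEB1-AS1 was at 2.26 TPM and 2.14 TPM. Whether the quantification used strand is not given in the sources used here, so reads from ZEB2 and from its antisense partner may not be separated.

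TWIST1 (chr7:19113047-19117636) divided into a coding and a non-coding transcript that went in opposite directions. The coding NM_000474.4 was at 20.6 TPM with vehicle and 14.5 TPM with CCA-1.1, a difference of -0.48 and a level 29.7% lower. The non-coding NR_149001.2 was at 1.45 TPM with vehicle and 2.43 TPM with CCA-1.1, a difference of 0.49. The coding share of TWIST1 was 93.4% with vehicle and 85.6% with CCA-1.1. SNAI2 and SNAI1 have 1 transcript each in the table, so their gene values are those of a transcript. Of the 3 TWIST2 transcripts none exceeded 0.06 TPM in either library.

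In CDH13 (chr16:82626969-83800640) the lower level was spread over its transcripts. Of the 9 transcripts 2 were at 0 in both libraries, 6 were lower with CCA-1.1 and 1 was higher, by 0.02 TPM. The main transcript NM_001257.5 was at 218.6 TPM with vehicle and 162.1 TPM with CCA-1.1, a difference of -0.43, and held 61.9% and 60.8% of the gene. NM_001220491.2 was at 75.8 TPM with vehicle and 60.4 TPM with CCA-1.1, a difference of -0.32. The predicted XM_017022848.3 was at 42.2 TPM and 36.4 TPM, a difference of -0.21. NM_001220492.2 stood apart with 12.1 TPM with vehicle and 4.08 TPM with CCA-1.1, a difference of -1.37. The shares changed by only 3.03 percentage points between the libraries, so that, unlike in ZEB1, the total moved and the composition moved little. CDH13-AS1 was at 0 in both libraries, and CDH13-AS2 was at 0.13 TPM with vehicle and 0 with CCA-1.1.

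The main transcript of CDH2 (chr18:27932879-28177130), NM_001792.5, was at 24.3 TPM with vehicle and 21.5 TPM with CCA-1.1, a difference of -0.17. NM_001308176.2 was listed at 0 with vehicle and was at 1.25 TPM with CCA-1.1, a difference of 1.17. The predicted XM_017025514.3 was at 1.19 TPM with vehicle and 2.37 TPM with CCA-1.1. The gain of these minor transcripts nearly balanced the lower value of the main one, and CDH2 as a whole was lower by 0.41 TPM. CDH11 was mostly NM_001797.4, at 1.36 TPM with vehicle and 1.49 TPM with CCA-1.1, and its lower total came from XM_047433486.1 (0.33 TPM and 0.13 TPM) and NM_001308392.2 (0.12 TPM and 0). All of the CDH1 (chr16:68737292-68835537) signal was assigned to NM_001317184.2, at 0.16 TPM and 0.06 TPM, and the other 3 transcripts of CDH1, NM_004360.5 included, were at 0 in both libraries.

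**Figure D3:**
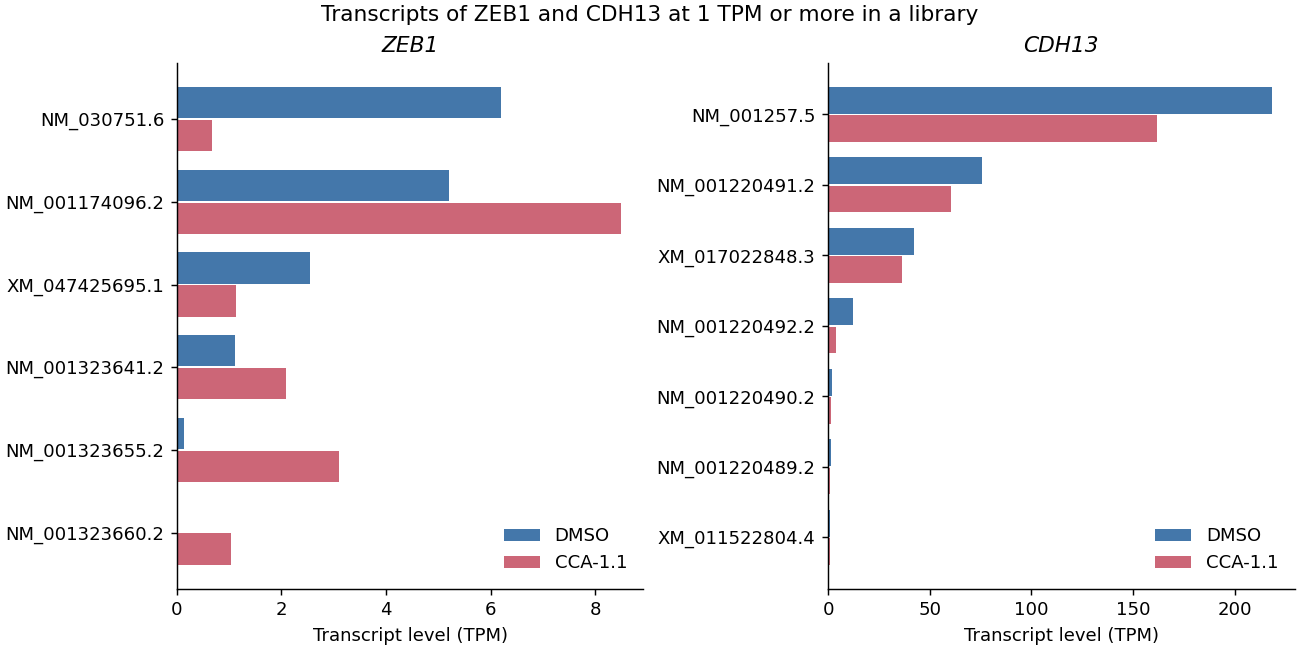
Transcript level (TPM) of ZEB1 (left) and CDH13 (right) for the transcripts at 1 TPM or more in a library, with 1 bar for DMSO and 1 for CCA-1.1; the horizontal axes differ in range and no error bars can be drawn. In ZEB1 NM_030751.6 is lower (6.19 and 0.67 TPM) while NM_001174096.2 is higher (5.20 and 8.50 TPM), whereas in CDH13 the bars of the 4 highest transcripts are all shorter in CCA-1.1.

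The genes that work with these factors and cadherins were examined in lists, and on the log2(TPM + 1) scale none of their 124 genes passed 2-fold in either direction. The added 1 TPM decides this for ELF3 and ZEB2-AS1, whose differences were -1.06 and -1.16 on the plain log2 scale, an alternative added for the lists once their values were seen. They were the only genes at a mean of 1 TPM or more to pass 2-fold on that scale. Over all genes at that minimum the median log2(TPM + 1) difference was 0.03, so a higher value was the more common sign. Of 19 other CDH genes and SNAI3, 5 averaged 1 TPM or more and their median difference was -0.02. The highest were CDH24, at 6.28 TPM with vehicle and 5.98 TPM with CCA-1.1, and SNAI3, at 3.31 TPM and 3.03 TPM. CDH3, P-cadherin, was at 1.18 TPM and 1.40 TPM. None of the CDH genes of this list came near CDH13 or CDH2, and cadherin genes with other names were not examined.

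The catenins tie the tails of classical cadherins such as CDH1, CDH2 and CDH11 to actin. Of 9 genes for catenins and vinculin, 6 averaged 1 TPM or more, with a median difference of 0.06, and 4 of these were higher and 2 lower. CTNNA1, alpha-catenin, was at 168.0 TPM with vehicle and 160.6 TPM with CCA-1.1. VCL, vinculin, was at 122.8 TPM and 105.7 TPM, a difference of -0.21. ARVCF, a relative of p120 catenin, was at 1.32 TPM and 2.03 TPM, the largest positive difference of the list at 0.39.

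E proteins pair with TWIST factors to bind DNA, and ID proteins sequester E proteins. Of 7 such genes 6 averaged 1 TPM or more, and all 6 had a lower value with CCA-1.1, with a median difference of -0.23. ID3 was at 167.4 TPM with vehicle and 120.3 TPM with CCA-1.1, a difference of -0.47. ID1 was at 105.9 TPM and 75.9 TPM, a difference of -0.48, and ID2 was at 117.5 TPM and 102.4 TPM, a difference of -0.20. The differences of ID1 and ID3 also lay below the 5th percentile of -0.29, as those of TWIST1 and CDH13 did. This was not particular to the ID genes. In the mesenchymal list described below, TNC, FSTL1, SPOCK1, NT5E, CD44, SOX9, ENG and FN1 lay below it too. The others of that list at a mean of 10 TPM or more did not, namely VIM, S100A4, SPARC, ACTA2, LOX, PRRX1 and ETS1. TCF3, which encodes the E proteins E12 and E47, was nearly level at 62.6 TPM and 61.4 TPM.

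Among the co-repressors and chromatin enzymes known to act with SNAI or ZEB factors, more were higher than lower, by small amounts. All 12 averaged 1 TPM or more, and 10 were higher and 2 lower with CCA-1.1. Their median difference was 0.09, against 0.03 over all genes at that minimum. HDAC1, a histone deacetylase, was at 74.2 TPM with vehicle and 75.4 TPM with CCA-1.1. CTBP1, the corepressor bound by ZEB factors, was at 56.4 TPM and 53.2 TPM. SUZ12, a subunit of the Polycomb repressive complex, had the largest positive difference, 0.28, at 23.7 TPM and 29.1 TPM. Of 11 genes known to act on the stability of SNAI proteins, 10 averaged 1 TPM or more, with a median difference of 0.05. PSMD14, a deubiquitinase of the proteasome, was at 123.4 TPM and 103.3 TPM, CSNK1A1 was at 86.7 TPM and 88.4 TPM, and the ubiquitin ligase subunit BTRC was at 6.72 TPM and 7.60 TPM.

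Of 30 epithelial junction and splicing genes, 15 had a mean under 1 TPM and 3 of these were at 0 in both libraries. The other 15 had a median difference of 0.05, near the 0.03 over all genes at that minimum, with 11 higher and 4 lower. PALS1, a polarity protein, was at 46.6 TPM with vehicle and 49.3 TPM with CCA-1.1, and CLDN12, a claudin, was at 18.1 TPM and 25.6 TPM, the largest positive difference at 0.48. ELF3, an epithelial transcription factor, was at 2.02 TPM and 0.97 TPM, a difference of -0.62 with the added 1 TPM. Of 23 mesenchymal genes, 19 averaged 1 TPM or more, 12 were lower and 7 higher with CCA-1.1, and the median difference was -0.21. FN1, fibronectin, was at 11241 TPM with vehicle and 9088 TPM with CCA-1.1, a difference of -0.31, and VIM, vimentin, was at 3217 TPM and 3106 TPM. TNC, tenascin C, had the largest negative difference, -0.74, at 162.7 TPM and 96.7 TPM, and the forkhead factor FOXC1 the largest positive one, 0.30, at 4.36 TPM and 5.62 TPM.

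The label of the cells was compared with marker lists. Of 9 markers of glioma or neural stem cells, VIM was the highest and CD44 was at 607.4 TPM with vehicle and 472.6 TPM with CCA-1.1, NES (nestin) was at 7.53 TPM with vehicle and 7.62 TPM with CCA-1.1, OLIG2 at 5.64 TPM and 7.03 TPM, and SOX2 at 1.87 TPM and 1.45 TPM, while GFAP was at 0.41 TPM and 0.57 TPM, PROM1 and NCAM1 were also under 1 TPM, and S100B was at 0 in both libraries. All 5 neuronal markers averaged 1 TPM or more, led by TUBB3 at 215.9 TPM and 193.7 TPM. The summed level of 6 epithelial markers, CDH1 included, was 2.89 TPM with vehicle and 2.88 TPM with CCA-1.1, of which CLDN4 gave 2.52 TPM and 2.64 TPM, with GRHL2 and KRT5 at 0. The longer list of 30 epithelial genes described above summed to 153.1 TPM with vehicle and 166.3 TPM with CCA-1.1, and it holds genes at higher levels than these markers, such as KRT8 at 18.8 TPM and 21.4 TPM and CLDN7 at 13.6 TPM and 15.3 TPM. That of 6 leukocyte markers was 3.51 TPM and 3.71 TPM, with CD3E at 0, and that of 6 endothelial markers, CDH5 included, was 4.92 TPM and 4.09 TPM. Fewer cells of a type and less RNA per cell cannot be told apart in a bulk library.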

How the data were processed

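RNA of U87 cells treated for 72 h with DMSO or CCA-1.1 was sequenced after mRNA enrichment (1 library per condition). Reads were assessed by the authors with FastQC version 0.11.9 and MultiQC version 1.1, as the submitters' processing notes also state, and transcripts were quantified with Kallisto by pseudo-alignment against human transcripts of GRCh38.p14. The deposited values were taken as TPM, with 2 decimals, because both columns have nearly the same sum (999999 in DMSO) and Kallisto gives this unit, which the methods do not name; read depth is unknown, and use of strand or bias correction is not given in the sources used here.

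Of 177816 transcripts, 169966 were matched to 41582 symbols by RefSeq identifier (GRCh38.p14), versions ignored, and TPM was summed per gene. The study's fold criterion (2-fold) was applied to differences of log2(TPM + 1). The calculation was run on simulated data with 200 planted changes in genes at a mean of 10 TPM or more. This checks the arithmetic only, not values at low TPM or of transcripts. No test was possible. All members were named, together with member transcripts holding at least 10% of a gene at 1 TPM or more or passing 2-fold. From each pathway list were named the 2 genes with the highest mean, the largest rise and largest fall at a mean of at least 1 TPM, and any past 2-fold. Members and lists were chosen with earlier results of these data known. Transcripts below these limits, antisense genes and marker genes were named after their values were seen. Sequences came from RefSeq tables. Alternatives were pseudocounts of 0.1 TPM, 0.01 TPM or none, a minimum mean of 1 TPM, median-ratio scaling, curated transcripts only, and versioned identifiers. Calculations used Python 3.11.15, numpy 2.4.6 and pandas 2.3.3, and figures matplotlib 3.10.9.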

Additional observations from a re-analysis of the deposited data

How the results depend on the processing

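No paired analysis was possible because each treatment has a lone library, and for the same reason none could be left out. No member was past 2-fold with a pseudocount of 0.1 TPM, a minimum mean of 1 TPM, median-ratio scaling, curated transcripts or versioned identifiers. With a pseudocount of 0.01 TPM 2 members, CDH1 (-1.28) and TWIST2 (-2.58), were past 2-fold lower in CCA-1.1, and without a pseudocount the same 2 were (-1.42 and -3.46); both are under 0.2 TPM in either library, where a smaller pseudocount enlarges any difference. None was past 2-fold higher under any alternative. The median difference of the cadherins was -0.28 with 0.1 TPM, with 0.01 TPM (-0.283) and without a pseudocount, and that of the factors moved by less than 0.1 throughout. Of 67 recomputed member differences 8 moved by 0.1 or more and 2 changed sign, ZEB1 (0.09) and CDH11 (0.0058) with curated transcripts only. All genes past 2-fold numbered 1713 higher and 1278 lower with 0.1 TPM, 3870 and 2958 with 0.01 TPM, and 2064 and 1040 without a pseudocount. Of 124 genes in the pathway lists, the number past 2-fold was 0 higher and 3 lower with 0.1 TPM, 3 and 6 with 0.01 TPM, and 2 and 4 without a pseudocount, settings added for the lists after seeing the data; of these, ZEB2-AS1 (from 0.1 TPM down) and ELF3 (from 0.01 TPM down) had a mean of at least 1 TPM. With curated transcripts only, NM_001797.4 held 91.9% (DMSO) and 100% (CCA-1.1) of CDH11, NM_001257.5 held 70.5% and 70.7% of CDH13, NM_001792.5 held 100% and 94.5% of CDH2, and NM_030751.6 held 35.9% of ZEB1 in DMSO. Unknown depth limits every value near 0, among them those of SNAI1, TWIST2 and CDH1.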
